A study of Homo sapiens with 8 samples.

Results

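Polycomb repressive complex 2 (PRC2) is the enzyme complex that methylates lysine 27 of histone H3. Its subunits were read here as 10 genes, taken by name: EZH1, EZH2, SUZ12, EED, RBBP4, RBBP7, MTF2, PHF19, PHF1 and JARID2. They are 10 of 29838 genes and loci with reads, and 67 of the 96614 assembled transcripts belong to them. A further 12 transcripts are listed under the names only because they lie inside an intron, and these were left out of the gene counts.

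The libraries are long-read RNA libraries of the established human embryonic stem line H1, sequenced on a PacBio Sequel II. There were 4 groups of 2 libraries each: undifferentiated cells (hPSC) kept in mTeSR1 on Matrigel, and cells collected after 5 days of differentiation to ectoderm, endoderm or mesoderm. Ectoderm medium held 15% KOSR with A83-01, PNU-74654 and Dorsomorphin at 2 µM each, which inhibit TGF-beta receptor, WNT and BMP signalling. Endoderm medium held 0.5% FBS, WNT3A and 100 ng/ml Activin A. Mesoderm medium held 0.5% FBS, 100 ng/ml VEGF, 100 ng/ml BMP4 and 10 ng/ml bFGF, with 100 ng/ml Activin A for the opening 24 hours. All groups share 1 cell line, and the labels number the libraries as repeats without saying that they came from separate cultures. The p-values therefore measure the spread between these libraries, which may be technical.

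PRC2 places H3K27 trimethylation, a mark of silenced genes, and in embryonic stem cells it is known for keeping developmental regulators off. The catalytic subunit is EZH2 or its paralog EZH1. It works only together with SUZ12, the scaffold, and EED, which binds the trimethyl mark and stimulates the enzyme. RBBP4 and RBBP7 are near-identical histone-binding chaperones that also serve in other chromatin complexes. Accessory subunits divide PRC2 into forms: PRC2.1 holds 1 of the Polycomb-like proteins MTF2, PHF19 and PHF1, and PRC2.2 holds JARID2 and AEBP2.

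Levels are given as CPM, the usual unit of counts relative to the library total, scaled by the TMM factors of the fit, so that they match the fold changes. Total counts ran from 503840 to 1180888 reads per library, and the ectoderm libraries were the deepest. A floor of 3 counts corresponds to 2.01 to 7.05 CPM, depending on the library. All 10 genes passed the filter on low counts, among 10843 genes tested. Marker genes bore out the labels in part. Of 6 tested endoderm markers 6 were higher in endoderm than in hPSC, and of 5 tested ectoderm markers 4 were higher in ectoderm, where SOX1 was at 0. Of 4 tested mesoderm markers 2 were higher and 1 was lower in mesoderm, where FOXF1, MESP1 and MIXL1 were at 0. In that same group 8 of 8 tested amnion and trophoblast markers were higher than in hPSC. In endoderm 2 of 5 ectoderm markers and 3 of 4 mesoderm markers were higher than in hPSC too. Of the 8 amnion and trophoblast markers 2 were higher and 3 lower there. The listed ectoderm markers summed to 546 and 573 CPM in endoderm, mostly OTX2 (533 and 559 CPM), against 650 and 488 CPM in ectoderm. Over all genes tested 23.8% were higher in ectoderm, 13.4% in endoderm and 16.9% in mesoderm than in hPSC. In bulk RNA, fewer cells of a type and less RNA per cell cannot be told apart. Scaling matters for small differences: with library totals and no factors the median change of all genes from hPSC moved by 0.41 in ectoderm, -0.33 in endoderm and 0.23 in mesoderm (log2), and that of ectoderm against endoderm by 0.75.

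The sequences printed here are start regions, and no test below uses them. They belong to EZH2, SUZ12 and MTF2, the subunit genes called higher in ectoderm than in hPSC, and to JARID2. JARID2 has 2 annotated starts used by these transcripts, and some of its transcripts begin ahead of the upstream one. The windows come from RefSeq on GRCh38.p14 and run from 250 bases before to 50 bases after the start. Capitals mark a match to the E2F consensus, searched on both strands as TTTCCCGC, TTTGGCGC, TTTGCCGC and TTTCGCGC. E2F proteins are transcription factors that control genes of the cell division cycle.
EZH2 promoter (chr7:148884242-148884541, minus strand): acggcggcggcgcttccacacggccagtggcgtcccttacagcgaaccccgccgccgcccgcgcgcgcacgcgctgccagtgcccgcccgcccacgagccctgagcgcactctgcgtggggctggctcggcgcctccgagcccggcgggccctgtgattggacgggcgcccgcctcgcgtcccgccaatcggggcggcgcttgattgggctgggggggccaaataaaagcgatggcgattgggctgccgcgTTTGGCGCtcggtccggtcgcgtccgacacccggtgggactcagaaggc
SUZ12 promoter (chr17:31936757-31937056, plus strand): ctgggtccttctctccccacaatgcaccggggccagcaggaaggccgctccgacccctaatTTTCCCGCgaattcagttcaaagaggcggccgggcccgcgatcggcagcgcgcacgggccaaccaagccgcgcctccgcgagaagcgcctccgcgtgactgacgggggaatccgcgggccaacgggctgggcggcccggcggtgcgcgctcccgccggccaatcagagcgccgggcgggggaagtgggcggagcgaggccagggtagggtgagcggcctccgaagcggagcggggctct
MTF2 promoter (chr1:93079033-93079332, plus strand): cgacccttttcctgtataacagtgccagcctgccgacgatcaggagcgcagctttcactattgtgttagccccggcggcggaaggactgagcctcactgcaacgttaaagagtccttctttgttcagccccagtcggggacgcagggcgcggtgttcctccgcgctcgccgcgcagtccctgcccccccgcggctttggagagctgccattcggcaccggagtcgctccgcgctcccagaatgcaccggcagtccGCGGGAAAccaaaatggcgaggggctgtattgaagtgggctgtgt
JARID2 promoter at the upstream start (chr6:15245819-15246118, plus strand): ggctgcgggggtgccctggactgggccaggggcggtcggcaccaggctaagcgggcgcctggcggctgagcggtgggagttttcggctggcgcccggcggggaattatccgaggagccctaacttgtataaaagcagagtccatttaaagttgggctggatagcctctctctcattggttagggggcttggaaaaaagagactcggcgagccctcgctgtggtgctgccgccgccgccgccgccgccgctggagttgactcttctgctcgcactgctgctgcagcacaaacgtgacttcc
JARID2 promoter at the second start (chr6:15248605-15248904, plus strand): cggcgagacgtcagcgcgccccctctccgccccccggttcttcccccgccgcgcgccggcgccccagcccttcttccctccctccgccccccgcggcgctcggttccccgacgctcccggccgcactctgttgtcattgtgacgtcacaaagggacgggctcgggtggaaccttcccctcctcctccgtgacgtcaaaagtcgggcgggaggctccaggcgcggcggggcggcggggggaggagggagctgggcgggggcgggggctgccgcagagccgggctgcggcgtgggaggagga
The match begins 1 base after the start of EZH2, 5 bases after that of MTF2 and 189 bases before that of SUZ12. Across the 10 genes, 5 of 15 windows hold a match, beside 1164 of all 35116 windows in the table (3.31%). The remaining matches lie in the windows of EZH1, which was not called in ectoderm, and PHF19, which was lower there (log2 -1.30). The letters searched contain CpG, and the 15 windows hold 16 to 54 CpG (median 40) against a median of 14 over all windows. The part of this composition in the difference was not tested. Neither JARID2 window holds these letters, nor does a second EZH2 window that is not printed. A match is a description of the sequence and not a binding site.

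Also shown are 2 coding segments that separate the transcripts of MTF2 and EZH2, with 10 bases of the neighbouring exon sequence on each side in lower case and the variable segment in capitals.
MTF2 segment (chr1:93110247-93110326, plus strand): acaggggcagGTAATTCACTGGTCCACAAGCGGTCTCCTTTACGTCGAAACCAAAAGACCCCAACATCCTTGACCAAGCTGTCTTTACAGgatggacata
EZH2 segment (chr7:148846470-148846496, minus strand): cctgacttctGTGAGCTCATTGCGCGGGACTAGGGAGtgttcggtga
The MTF2 segment is 80 bases long, so that leaving it out does not keep the reading frame. The transcript without it has 16 exons against 15, so the segment is spliced out from within an exon and is not a skipped exon. GENCODE 29 gives 593 codons to the transcript that holds it and 491 to the one that lacks it, whose coding sequence begins further downstream. The EZH2 segment is 27 bases long, and GENCODE gives 746 codons with it and 737 without it.

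Which subunit genes differed between undifferentiated cells and each germ layer was asked first. In ectoderm EZH2, SUZ12 and MTF2 were higher than in hPSC, while JARID2 and PHF19 were lower. In endoderm MTF2 and RBBP7 were lower. In mesoderm JARID2 was lower by 11.1-fold. These are 5, 2 and 1 of 10 genes at an adjusted p under 0.05 (edgeR's quasi-likelihood test with Benjamini-Hochberg adjustment over all genes tested), beside 48.7%, 27.2% and 35.1% of all genes tested. By direction, 23.8% of all genes were called higher and 24.8% lower in ectoderm, 13.4% higher and 13.8% lower in endoderm, and 16.9% higher and 18.2% lower in mesoderm. In this fit the members' counts are thus close to or below the background in each layer. The background moved with the setting: over the alternatives 21.3% to 49.4% of genes were called in ectoderm beside 4 to 5 members, 11.3% to 33.5% in endoderm beside 0 to 2, and 14.4% to 42.3% in mesoderm beside 1 to 2. Without ectoderm replicate 2 it was 28.0% beside 5 members, without ectoderm replicate 1 31.4% beside 4. Without endoderm replicates 1 and 2 in turn it was 13.7% and 12.2%, both beside 0, and without mesoderm replicates 1 and 2 in turn 18.6% and 16.8%, both beside 1. The median log2 fold change of the 10 genes was 0.02 in ectoderm, -0.29 in endoderm and 0.11 in mesoderm, against -0.01, -0.13 and 0.01 over all genes tested. Between layers 6 of the 10 genes differed for ectoderm against endoderm (4 higher beside 33.1% of all genes, 2 lower beside 29.9%), 3 for ectoderm against mesoderm (all higher) and 3 for endoderm against mesoderm (1 higher, 2 lower). Over all genes tested the shares called were 63%, 35.5% and 47.1%. With single libraries left out the second of these counts ran from 1 to 6 and the third from 2 to 6. The lowest value of the second came without either mesoderm repeat, and the highest of both without hPSC replicate 1. The 3 comparisons with hPSC share the hPSC libraries, and those between layers share the layers' libraries.

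**Figure D1:**
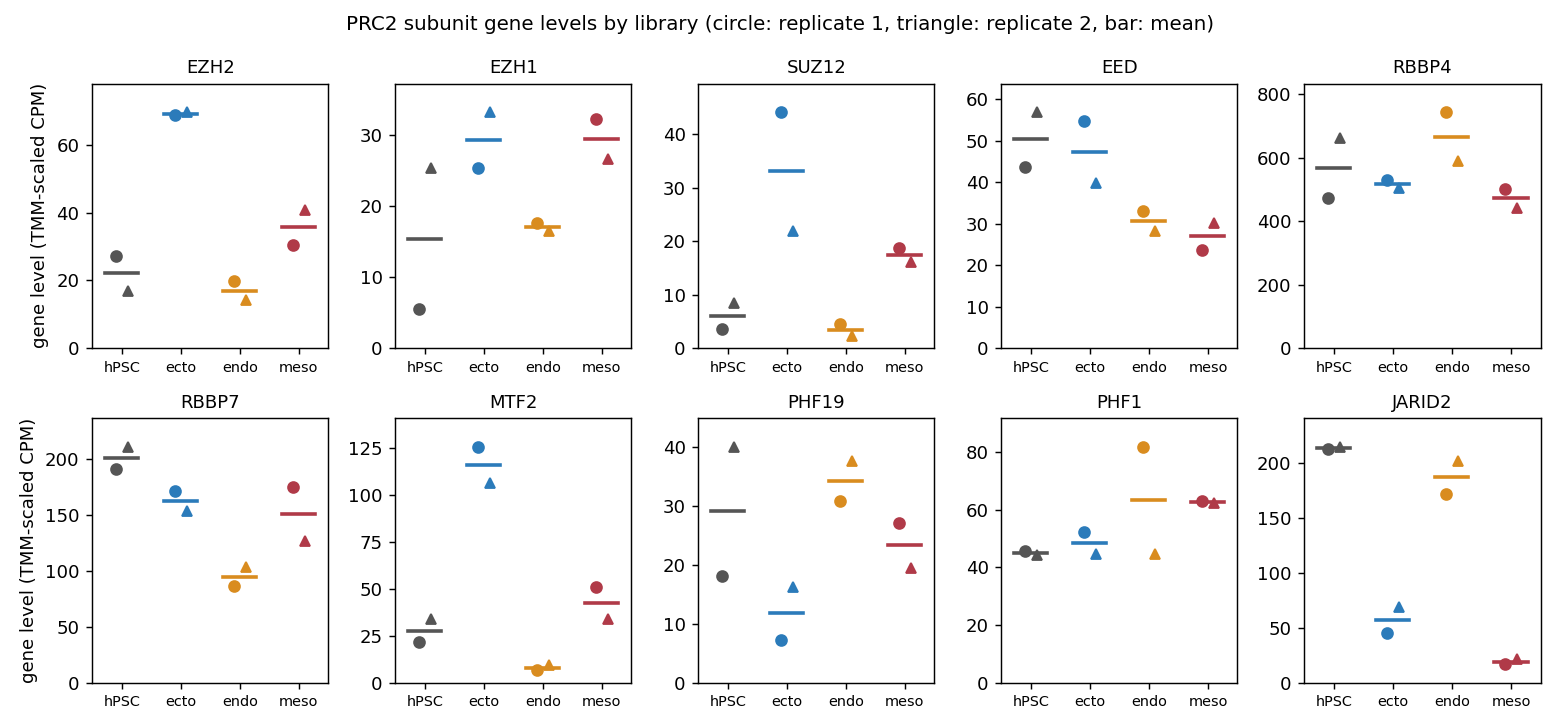
Gene level of the 10 PRC2 subunits in each library, in TMM-scaled CPM on an axis that starts at 0 and differs between panels, with circles for replicate 1, triangles for replicate 2 and bars for the group mean. JARID2 lies at 172 CPM or more in hPSC and endoderm and at 17.0 and 21.3 CPM in mesoderm, and MTF2 reaches its highest values in ectoderm (126 and 106 CPM).

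**Figure D2:**
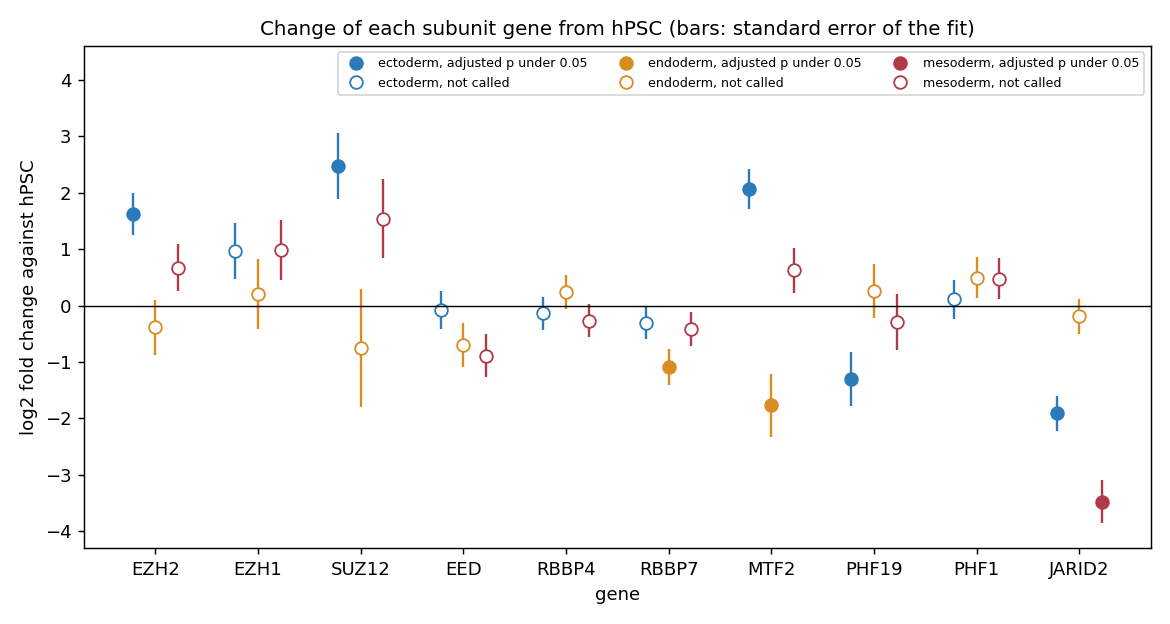
Log2 fold change of each subunit gene from hPSC in the 3 layers, with the standard error of the fit. Filled points passed an adjusted p of 0.05, and the SUZ12 value in endoderm rests on 3 reads. The filled points are EZH2, SUZ12, MTF2, PHF19 and JARID2 for ectoderm, RBBP7 and MTF2 for endoderm, and JARID2 for mesoderm.

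EZH2, the main methyltransferase of dividing cells (ENSG00000106462.12, chr7:148807374-148884321, minus strand, GRCh38), was read 15 and 8 times in hPSC. It had 27.3 and 16.9 CPM there, 68.9 and 69.8 CPM in ectoderm, 19.9 and 14.1 CPM in endoderm, and 30.6 and 40.9 CPM in mesoderm. The ectoderm libraries were the highest and overlapped with no other group. EZH2 was 3.09-fold higher in ectoderm than in hPSC (log2 1.63, SE 0.37, adjusted p = 0.00209 by edgeR), higher than in endoderm (log2 2.01, adjusted p = 0.000456) and higher than in mesoderm (log2 0.96, adjusted p = 0.0355). When a trend on transcript length was removed from each library, the change from hPSC fell to 0.71 (log2) with an adjusted p of 0.134, and the difference from endoderm fell to 0.93 (adjusted p = 0.0573). The difference from mesoderm was called in 10 of 17 alternatives only. The hPSC, endoderm and mesoderm levels were not separated by the test: the log2 change from hPSC was -0.39 (95% interval -1.42 to 0.65) in endoderm and 0.67 (-0.21 to 1.55) in mesoderm.

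Genes of the cell cycle list moved in both directions in ectoderm: 7 of 24 tested were higher and 8 were lower than in hPSC, with a median log2 change of -0.41. TOP2A, the topoisomerase that untangles chromosomes, had 887 and 1041 CPM in ectoderm, 78.3 and 84.3 CPM in hPSC, 22.1 and 25.8 CPM in endoderm, and 207 and 188 CPM in mesoderm. AURKB, a kinase of chromosome segregation, had 54.2 and 46.2 CPM in ectoderm against 149 and 261 CPM in hPSC (log2 -2.02, SE 0.33, adjusted p = 0.000197). In endoderm 11 of the 24 were lower, and in mesoderm 3 were higher and 11 lower. Over all genes tested 23.8% were higher and 24.8% lower in ectoderm. The shares were 13.4% and 13.8% in endoderm and 16.9% and 18.2% in mesoderm. The summed level of the 26 listed genes was 6081 to 8873 CPM in hPSC, 6137 to 6237 in the ectoderm repeats, 3609 to 3632 in endoderm and 3907 to 4366 in mesoderm, with no gene at 0 in any group. The part of the cell cycle in the EZH2 result was not tested.

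EZH1, the paralog with weaker methyltransferase activity that is known from non-dividing cells (ENSG00000108799.13, chr17:42700266-42745061, minus strand), had 5.46 and 25.3 CPM in hPSC, from 3 and 12 reads. It had 25.4 and 33.3 CPM in ectoderm, 17.7 and 16.4 CPM in endoderm, and 32.3 and 26.7 CPM in mesoderm. The hPSC repeats lay further apart than the means of any pair of groups. The changes from hPSC did not pass the test in ectoderm (log2 0.97, adjusted p = 0.113), endoderm (0.20, adjusted p = 0.851) or mesoderm (0.99, adjusted p = 0.165). Without hPSC replicate 2 the values became 2.44 in ectoderm (adjusted p = 0.00304) and 2.39 in mesoderm (adjusted p = 0.00859), so 1 library decides whether EZH1 is called.

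The genes whose log2 level followed EZH2 most closely over the 8 libraries were ATE1 (Pearson r = 0.995), NCAPG (0.990), TBL1XR1 (0.989), FNDC3A (0.989) and SLC30A1 (0.988). Those most like EZH1 were SUPT3H (0.976), RPRD1B (0.964), RAPGEF2 (0.941), ZNF708 (0.937) and NUAK2 (0.935). These were picked as the highest of all genes tested over points that share 4 groups and 8 library depths, and are given as a description. Among the members, the highest correlation was that of MTF2 with SUZ12 (0.915) and the lowest that of EZH2 with PHF19 (-0.890), over the same 8 libraries.

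SUZ12, the scaffold of the core (ENSG00000178691.11, chr17:31937003-32001038, plus strand), had few reads outside ectoderm. It was read 2 and 4 times in hPSC, 66 and 27 times in ectoderm, 2 times and 1 time in endoderm, and 11 and 9 times in mesoderm. The levels were 3.64 and 8.43 CPM in hPSC, 44.1 and 21.9 CPM in ectoderm, 4.42 and 2.35 CPM in endoderm, and 18.7 and 16.0 CPM in mesoderm. Both ectoderm libraries were above all others, and they differed from each other by a wide margin. The increase from hPSC to ectoderm was 5.56-fold (log2 2.48, SE 0.58, adjusted p = 0.00269) and stayed called in 17 of 17 alternatives. Its size moved with the hPSC libraries: the log2 value was 1.96 without hPSC replicate 1 and 3.21 without hPSC replicate 2. It was 3.09 with reference-matching transcripts only. The pooled ratio of ectoderm to endoderm was 9.98 (95% exact conditional interval 3.31 to 49.3, counting error only), and that of mesoderm to endoderm was 5.09 (1.51 to 26.7), both past the adjusted threshold in the fit (0.0008 and 0.0316). The second of these was lost in 6 of 17 alternatives, among them DESeq2 (adjusted p = 0.107) and leaving out either repeat of endoderm or of mesoderm. The ratio of hPSC to endoderm was 1.72 (0.366 to 10.6), so at this depth no difference was detectable. In mesoderm against hPSC the log2 change was 1.54 (adjusted p = 0.1002). It passed when only transcripts that match the reference were summed (2.04, adjusted p = 0.0496) or when every listed row was (1.76, adjusted p = 0.0368). SUZ12P1, a near-identical pseudogene counted apart, had 14.6 and 6.33 CPM in hPSC and 18.1 and 7.30 CPM in ectoderm. It had 0 and 0 CPM in endoderm and 22.1 and 21.3 CPM in mesoderm. In hPSC it was read 8 and 3 times, against 2 and 4 times for SUZ12. Reads could be split between the pair, so the SUZ12 levels and changes depend on how such reads were assigned. The part of this split in the SUZ12 changes was not tested.

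EED, the reader of the trimethyl mark (ENSG00000074266.23, chr11:86244753-86278810, plus strand), had 43.7 and 56.9 CPM in hPSC, 54.8 and 39.8 CPM in ectoderm, 33.1 and 28.2 CPM in endoderm, and 23.8 and 30.2 CPM in mesoderm. The endoderm and mesoderm libraries lay below all hPSC libraries, and those of ectoderm overlapped with hPSC. None of the changes from hPSC passed: the log2 values were -0.08 in ectoderm (95% interval -0.78 to 0.63), -0.70 in endoderm (-1.54 to 0.13) and -0.89 in mesoderm (-1.71 to -0.07, unadjusted, adjusted p = 0.0844). Without hPSC replicate 1 the mesoderm value was -1.09 (adjusted p = 0.0331).

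RBBP4 (ENSG00000162521.19, chr1:32651178-32686211, plus strand) was the most-read of the 10 genes, with 3118 reads in all. It had 473 and 662 CPM in hPSC, 529 and 504 CPM in ectoderm, 745 and 590 CPM in endoderm, and 503 and 441 CPM in mesoderm. All groups overlapped with hPSC, and the log2 changes of -0.14, 0.23 and -0.27 (SE 0.30 each) did not pass. SYNC overlaps RBBP4 on the opposite strand, and whether counting used the strand is not given in the sources used here. With the length trend removed, RBBP4 was lower in ectoderm (log2 -1.06, adjusted p = 0.0097).

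RBBP7 (ENSG00000102054.18, chrX:16844338-16870362, minus strand), its paralog, had 191 and 211 CPM in hPSC, 171 and 153 CPM in ectoderm, 86.2 and 103 CPM in endoderm, and 175 and 126 CPM in mesoderm. The endoderm libraries were the lowest of all 8. RBBP7 was 2.12-fold lower in endoderm than in hPSC (log2 -1.08, SE 0.32, adjusted p = 0.0187) and lower than in ectoderm (log2 0.78 for ectoderm over endoderm, adjusted p = 0.0382). Without endoderm replicate 1 the change from hPSC was -0.88 (adjusted p = 0.164), and without replicate 2 it was -1.13 (adjusted p = 0.0939). The ectoderm difference held in 11 of 17 alternatives. RBBP7 made up 26.5% ± 3.26 (SD, n = 2) of the reads of the pair in hPSC, 23.9% ± 0.790 in the ectoderm repeats, 12.6% ± 3.21 in endoderm and 24.0% ± 2.52 in mesoderm (exact permutation test over the partitions of the 8 libraries, p = 0.0952, adjusted p = 0.144 over the 7 shares compared). The smallest p this design allows is 0.00952. TXLNG likewise overlaps RBBP7.

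MTF2, a Polycomb-like protein that carries PRC2.1 to CpG-rich DNA (ENSG00000143033.18, chr1:93079215-93139079, plus strand), differed most widely between layers. It was read 12 and 16 times in hPSC, 188 and 131 times in ectoderm, 3 and 4 times in endoderm, and 30 and 19 times in mesoderm. These counts give 21.8 and 33.7 CPM in hPSC, 126 and 106 CPM in ectoderm, 6.63 and 9.40 CPM in endoderm, and 50.9 and 33.8 CPM in mesoderm. Ectoderm was highest and endoderm lowest, and the higher hPSC library met the lower mesoderm one. MTF2 was 4.20-fold higher in ectoderm than in hPSC (log2 2.07, SE 0.35, adjusted p = 0.000269), called in 17 of 17 alternatives. In endoderm it was 3.40-fold lower than in hPSC (log2 -1.76, SE 0.56, adjusted p = 0.0282). That call was lost with DESeq2 (adjusted p = 0.104), without hPSC replicate 2 (0.0973) and without either endoderm repeat (0.174 and 0.104), and the value kept its sign throughout. Between layers MTF2 was 14.3-fold higher in ectoderm than in endoderm (adjusted p = 5.01e-06), and lower in endoderm than in mesoderm (log2 -2.39, adjusted p = 0.00161). It was also higher in ectoderm than in mesoderm by a log2 of 1.45 (adjusted p = 0.00286), or 1.25 without mesoderm replicate 2 (adjusted p = 0.0545). The mesoderm and hPSC levels were not separated (log2 0.62, 95% interval -0.22 to 1.47).

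PHF19, the Polycomb-like protein that binds H3K36 methylation through its Tudor domain (ENSG00000119403.15, chr9:120855651-120877188, minus strand), had 10 to 20 reads in each library. Its levels were 18.2 and 40.1 CPM in hPSC, 7.36 and 16.2 CPM in ectoderm, 30.9 and 37.6 CPM in endoderm, and 27.2 and 19.6 CPM in mesoderm. The ectoderm libraries were the lowest of all 8. The decrease from hPSC to ectoderm was 2.46-fold (log2 -1.30, SE 0.49, adjusted p = 0.0363) and passed in 5 of 17 alternatives only, with adjusted p from 0.00184 to 0.426. It was -0.60 without hPSC replicate 2 and -0.67 without ectoderm replicate 1. PHF19 was also lower in ectoderm than in endoderm (log2 -1.56, adjusted p = 0.0107), which passed in 13 of 17. Its log2 changes in endoderm (0.26) and mesoderm (-0.28) did not pass.

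PHF1, the third Polycomb-like protein (ENSG00000112511.18, chr6:33410365-33416439, plus strand), had 45.5 and 44.3 CPM in hPSC, 52.2 and 44.6 CPM in ectoderm, 81.8 and 44.6 CPM in endoderm, and 62.8 and 62.2 CPM in mesoderm. Its log2 changes of 0.11, 0.50 and 0.48 did not pass, with 95% intervals of -0.62 to 0.84, -0.28 to 1.28 and -0.28 to 1.24.

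The make-up of the Polycomb-like trio was compared within each library, as a share of reads not corrected for length, which removes the library scaling. MTF2 took 27.1% ± 2.15 (SD, n = 2) of the reads in hPSC, 65.7% ± 3.02 in the ectoderm repeats, 7.91% ± 3.32 in endoderm and 32.7% ± 4.89 in mesoderm. By exact permutation p was 0.00952, the smallest it can give, with an adjusted p of 0.0667. PHF19 took 27.6% ± 8.95, 6.84% ± 4.06, 33.5% ± 10.7 and 18.1% ± 1.66 in the same order (exact permutation p = 0.0667, adjusted p = 0.144). PHF1 took 45.3% ± 11.1, 27.4% ± 1.03, 58.6% ± 14.0 and 49.2% ± 6.55 (exact permutation p = 0.124, adjusted p = 0.144). MTF2 was the most-read of the trio in both ectoderm libraries, and PHF1 was in the other 6. EZH1 took 16.7% and 60.0% of the reads of the EZH pair in the hPSC repeats and 27% to 53.8% elsewhere (exact permutation p = 0.638).

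**Figure D3:**
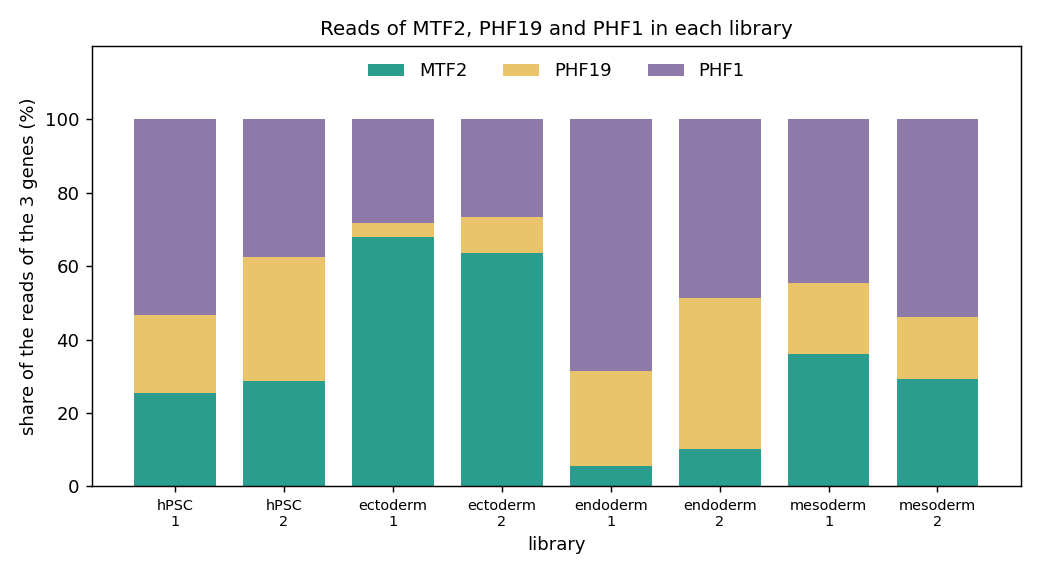
Share of the reads of MTF2, PHF19 and PHF1 that each gene took in each of the 8 libraries, as stacked bars that sum to 100%. MTF2 makes up 67.9% and 63.6% of the reads in ectoderm and 5.56% and 10.3% in endoderm.

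JARID2, the PRC2.2 subunit that binds nucleosomes and recruits the core in embryonic stem cells (ENSG00000008083.14, chr6:15245476-15522042, plus strand, with JARID2-AS1 on the other strand), was read 117 and 102 times in hPSC. It was read 68 and 85 times in ectoderm, 78 and 86 times in endoderm, and 10 and 12 times in mesoderm. Its level was 213 and 215 CPM in hPSC, 45.5 and 69.0 CPM in ectoderm, 172 and 202 CPM in endoderm, and 17.0 and 21.3 CPM in mesoderm. The 4 groups did not overlap. JARID2 was 11.1-fold lower in mesoderm than in hPSC (log2 -3.47, SE 0.38, adjusted p = 5.47e-06) and 3.75-fold lower in ectoderm (log2 -1.91, SE 0.31, adjusted p = 0.000197), and both passed in 17 of 17 alternatives. The mesoderm value was -4.50 with reference-matching transcripts only and -2.75 with every listed row, and the ectoderm value was -2.61 with the length trend removed. In endoderm the log2 change was -0.19 (95% interval -0.84 to 0.45). Between layers it was 9.70-fold higher in endoderm than in mesoderm (adjusted p = 8.76e-06), 3.28-fold lower in ectoderm than in endoderm (adjusted p = 0.00024) and 2.96-fold higher in ectoderm than in mesoderm (adjusted p = 0.00507). The last of these had an adjusted p of 0.0668 without mesoderm replicate 1.

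Several pluripotency markers were lower in each layer, also in endoderm, where JARID2 did not pass. Against hPSC, 5 of 8 tested were lower in ectoderm, 4 in endoderm and 7 in mesoderm, beside 24.8%, 13.8% and 18.2% of all genes. Their summed level was 4189 to 4932 CPM in hPSC, 1201 to 1525 in the ectoderm repeats, 2479 to 2731 in endoderm and 357 to 365 in mesoderm, with SOX2 at 0 in endoderm and mesoderm. Amnion and trophoblast markers summed to 5172 to 5529 CPM in mesoderm, where none of the 11 listed was at 0. They summed to 25.3 to 69.2 CPM in hPSC, 44.6 to 62.2 in ectoderm and 75.2 to 115 in endoderm. The part of either set of cells in the JARID2 result was not tested.

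AEBP2, the partner of JARID2 in PRC2.2, had too few reads to be tested, with 3 and 1 in hPSC, 20 and 17 in the ectoderm repeats, 1 and 0 in those of endoderm, and 5 and 4 in mesoderm. JARID2 took 98.3% ± 1.08 (SD, n = 2) of the reads of the pair in hPSC, 80.3% ± 4.29 in the ectoderm repeats, 99.4% ± 0.895 in endoderm and 70.8% ± 5.89 in mesoderm. By exact permutation p was 0.0190, with an adjusted p of 0.0667. LCOR and LCORL, whose loci encode PRC2.1 partners, were the 2 of 5 other PRC2 partners tested. LCORL had 5.46 and 8.43 CPM in hPSC and 65.5 and 80.3 CPM in ectoderm (log2 3.38, SE 0.52, adjusted p = 0.00012). LCOR was also higher in ectoderm, with 54.8 and 94.1 CPM against 12.7 and 8.43 CPM, and neither passed in endoderm or mesoderm. EPOP, another PRC2.1 partner, had 1 to 14 reads per library, and EZHIP, an inhibitor of the enzyme, had none.

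Long reads also show which transcripts of each gene were present. The 10 genes had from 2 (RBBP4) to 14 (EZH2) assembled transcripts. Of the members' reads, 40.3% ± 2.23 (SD, n = 2) in hPSC, 41.0% ± 1.02 in the ectoderm repeats, 46.8% ± 4.73 in endoderm and 41.4% ± 1.1 in mesoderm fell in transcripts that match no reference transcript (exact permutation p = 0.114, adjusted p = 0.144). At the transcript level 14 of the 67 could be tested, and 7 passed in ectoderm (6 higher, 1 lower), 1 in endoderm and 2 in mesoderm, all of the latter 3 lower. The background over all 12440 transcripts tested was 45.9%, 26.8% and 32.8%. Transcript choice within a gene could be tested for EZH2, JARID2, MTF2 and RBBP4, and edgeR's diffSpliceDGE called none of them in any layer, by the gene test or by Simes' method. The background was 5.83%, 5.07% and 7.1% of 2606 genes in ectoderm, endoderm and mesoderm. Of these 12 gene-level tests, that of JARID2 in endoderm alone had an unadjusted p under 0.05, and its adjusted p by edgeR was 0.116. Among single transcripts, hEDT_00079901 of JARID2 in ectoderm and hEDT_00079169 of JARID2 in endoderm had an unadjusted p under 0.05, with adjusted p of 0.523 and 0.569 by edgeR.

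The 9 JARID2 transcripts fall into 3 classes by their start. Starts at or ahead of the upstream promoter carried 90 and 72 reads in hPSC, 45 and 56 in the ectoderm repeats, 57 and 59 in those of endoderm, and 4 and 7 in mesoderm. Within this class hEDT_00079900, hEDT_00079169 and hEDT_00077620 begin at chr6:15245476 to 15245610, ahead of the annotated start (15246069) and of the printed window. Their reads were 7 and 4, 4 and 12, and 6 and 13 in hPSC. In endoderm they were 21 and 9, 13 and 12, and 4 and 6, so their part in the class differed between groups. Starts at the second promoter carried 17 and 15, 13 and 20, 11 and 16, and 4 and 3 reads in the same order. This class joins the spliced hEDT_00079901 with hEDT_00077622, a single exon of 6158 bases that holds intron sequence. The single-exon form held 12 and 5, 4 and 6, 2 and 2, and 1 and 3 of these reads. Pooled over repeats the second start took 14.6% of JARID2 reads in hPSC (95% Wilson interval 10.5% to 19.9%), 21.6% in ectoderm (15.8% to 28.7%), 16.5% in endoderm (11.6% to 22.9%) and 31.8% in mesoderm (16.4% to 52.7%). These intervals cover counting error only, and all 4 overlap. They include the single-exon form, whose part in the class differed between groups. The spliced hEDT_00079901 alone took 4.27% and 9.80% of JARID2 reads in the hPSC repeats and 13.2% and 16.5% in those of ectoderm. In endoderm it took 11.5% and 16.3%, and in mesoderm 30% and 0%. In GENCODE 29 the coding sequence of the second-start transcript begins further inside the gene, with 1074 codons against 1246 for the upstream one. The reference transcript of the upstream start (hEDT_00077621) was the most-read, with 60 and 37 reads in hPSC, 18 and 23 in the ectoderm repeats, 15 and 23 in those of endoderm, and 0 and 2 in mesoderm. That of the second start (hEDT_00079901) had 5 and 10, 9 and 14, 9 and 14, and 3 and 0 reads. The upstream transcript was lower in ectoderm (log2 -2.43, SE 0.44, adjusted p = 0.000489) and did not pass in endoderm (log2 -1.18, adjusted p = 0.0592). The second-start transcript did not pass in ectoderm (log2 -0.59, adjusted p = 0.460). The difference between the pair is what the test of transcript choice covers.

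**Figure D4:**
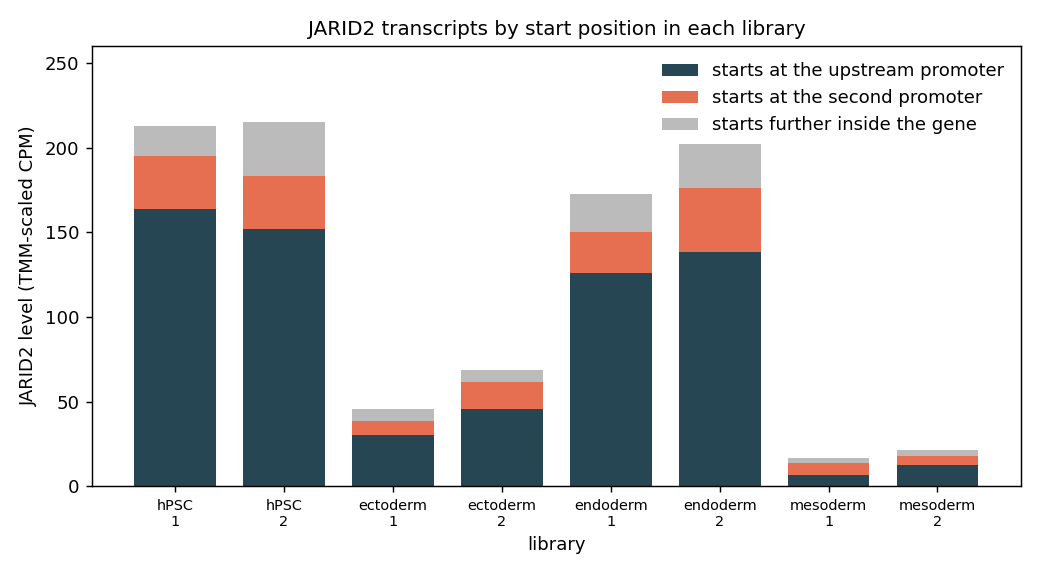
JARID2 level in each library in TMM-scaled CPM, stacked by where its transcripts start: the upstream promoter, the second promoter or further inside the gene. The upstream class includes transcripts that begin ahead of the annotated upstream start, and the second-promoter class includes the single-exon form hEDT_00077622. Upstream starts make up most of the bar in hPSC, ectoderm and endoderm, and the mesoderm bars rest on 10 and 12 reads.

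JARID2 also had 8 of the 12 intronic transcripts listed under the names. They held 67 and 96 reads in hPSC, 66 and 70 in the ectoderm repeats, 42 and 36 in those of endoderm, and 23 and 16 in mesoderm. The most-read of them (chr6:15513423-15517160, a single exon) had 18 and 60 reads in the hPSC repeats and 5 to 28 in the other libraries. With these reads added to the gene, JARID2 was still called lower in ectoderm and mesoderm.

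RBBP4 had 2 transcripts, which differ by an intron of 1138 bases in the 3 prime UTR (chr1:32682626-32683763), after the end of the coding sequence of 425 codons. The form without this intron, which matches no reference transcript, took 54.0% of reads in hPSC (95% Wilson interval 49.9% to 58.0%), 57.0% in ectoderm (54.4% to 59.6%), 52.9% in endoderm (48.9% to 56.9%) and 56.8% in mesoderm (52.6% to 60.9%). Per library it ranged from 49.8% to 57.3%. Neither form passed in any layer.

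The MTF2 transcript that lacks the segment printed above had 2 and 6 reads in hPSC, 36 and 24 in the ectoderm repeats, 0 and 1 in those of endoderm, and 8 and 2 in mesoderm. Among the reads of it and of the full-length transcript alone it made up 38.1% in hPSC (95% Wilson interval 20.8% to 59.1%), 25.8% in ectoderm (20.6% to 31.7%), 20.0% in endoderm (3.62% to 62.4%) and 25.6% in mesoderm (14.6% to 41.1%). The MTF2 transcripts hEDT_00000935 and hEDT_00007496 also span the position of the segment and were left out of this share. The full-length transcript (hEDT_00000936) and the one that lacks the segment (hEDT_00000937) were both higher in ectoderm, by log2 2.49 (adjusted p = 0.000333) and 1.65 (adjusted p = 0.0368). A shorter form that ends inside the gene (hEDT_00000935) was higher there too (log2 1.93, adjusted p = 0.0165).

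EZH2 reads were spread thinly, and its leading transcript, which holds the 27-base segment, took 23.9% of them. That transcript (hEDT_00083934) had 3 and 1 reads in hPSC, 22 and 21 in the ectoderm repeats, 1 and 3 in those of endoderm, and 6 and 7 in mesoderm, and was higher in ectoderm (log2 2.16, SE 0.65, adjusted p = 0.0126). The next (hEDT_00087279), a form of 17586 bases that keeps intron sequence, had 3 and 0, 23 and 22, 0 and 0, and 1 and 2 reads. It was higher in ectoderm as well (adjusted p = 0.00935). Transcripts that keep an intron or lie in one took 43.5% of EZH2 reads in hPSC (95% Wilson interval 25.6% to 63.2%), 59.3% in ectoderm (52.1% to 66.0%), 20.0% in endoderm (7.05% to 45.2%) and 31.7% in mesoderm (19.6% to 47.0%). The ectoderm interval lies above those of endoderm and mesoderm, with counting error only. The forms with intron sequence include those of 17586 and 13687 bases, against 2675 for the leading transcript. The part of the length trend between libraries in these shares was not tested. With transcripts that match the reference alone, EZH2 was still called higher in ectoderm than in hPSC.

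The most-read PHF1 transcript (hEDT_00079996) kept intron sequence and took 28.0% of the gene's reads. Such forms together took 32.6% of PHF1 reads in hPSC (95% Wilson interval 20.9% to 47.0%), 48.1% in ectoderm (39.8% to 56.5%), 28.6% in endoderm (18.4% to 41.5%) and 47.2% in mesoderm (36.1% to 58.6%), and the hPSC repeats differed (12 of 25 and 3 of 21 reads). PHF19 had a second start inside the gene, whose transcript ENST00000419155.5 has 371 codons against 580. It was used by 44.8% of reads in hPSC (28.4% to 62.5%), 64.5% in ectoderm (46.9% to 78.9%), 30.0% in endoderm (16.7% to 47.9%) and 25.9% in mesoderm (13.2% to 44.7%). RBBP7 transcripts all matched the reference. Those from an inner first exon, with 469 codons against 425, had 7 and 1 reads in hPSC, 8 and 10 in the ectoderm repeats, 1 and 0 in those of endoderm, and 17 and 3 in mesoderm, and the mesoderm repeats stood apart. For EED 96.2% and for SUZ12 91.0% of reads matched a reference transcript.

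The other Polycomb complex, PRC1, ubiquitylates histone H2A, and its canonical forms read the mark that PRC2 places. Of 29 listed genes 17 were tested. In ectoderm 5 were higher and 3 lower than in hPSC (median log2 change 0.45), in endoderm 2 were higher and 3 lower (-0.47), and in mesoderm 1 was higher and 5 lower (-0.47). Of all genes 23.8% were higher and 24.8% lower in ectoderm, 13.4% and 13.8% in the same order for endoderm, and 16.9% and 18.2% for mesoderm, so these counts are no result about the list. PHC1, a Polyhomeotic subunit, had 1040 and 1754 CPM in hPSC, 104.98 and 125 CPM in ectoderm, 97.2 and 94.0 CPM in endoderm, and 56.0 and 46.2 CPM in mesoderm. It was lower in all 3 layers, with log2 changes of -3.60 (adjusted p = 1.6e-06), -3.87 (2.2e-06) and -4.77 (2.2e-07). BCORL1, a corepressor of a variant PRC1, was higher in all 3, by log2 2.63 (adjusted p = 0.0044), 2.87 (0.0077) and 2.11 (0.043), and the last passed in 9 of 16 alternatives. CBX2, a reader of H3K27 trimethylation, had 231 and 179 CPM in hPSC and 86.6 and 88.9 CPM in mesoderm, where it was lower.

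Enzymes that oppose Polycomb were also listed. Of 9 tested H3K27 demethylases and H2AK119 deubiquitinases 4 were higher in ectoderm, 1 in endoderm and 3 in mesoderm, beside 23.8%, 13.4% and 16.9% of all genes. KDM6B, an H3K27 demethylase, was read 1 time in both hPSC libraries together and 49, 54 and 48 times in ectoderm, endoderm and mesoderm. The ratios to hPSC were 18.4 (95% exact conditional interval 3.15 to 741), 62.9 (10.8 to 2531) and 42.7 (7.30 to 1720), all called. KDM6A, its X-linked paralog, was not called in any layer against hPSC. ASXL1, which belongs to a deubiquitinase complex, was higher in ectoderm and mesoderm. Of 19 tested trithorax and H3K36 methyltransferase genes 7 were higher and 1 lower in ectoderm (median log2 change 0.36), 1 higher and 2 lower in endoderm (-0.14), and 3 higher and 1 lower in mesoderm (-0.16). The shares of all genes called lower were 24.8%, 13.8% and 18.2% in the same order. SETD2, which trimethylates H3K36, had 18.2 and 6.33 CPM in hPSC and 70.2 and 74.6 CPM in ectoderm (log2 2.50, adjusted p = 0.00027).

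Since RBBP4 and RBBP7 serve elsewhere, genes of their other complexes were counted. Of 14 tested, 1 was higher and 3 lower in ectoderm (median log2 change -0.20), 1 higher and 3 lower in endoderm (-0.43), and 2 lower in mesoderm (-0.30). Over all genes tested 23.8% were higher and 24.8% lower in ectoderm (median -0.01). The shares were 13.4% and 13.8% in endoderm (median -0.13), and 16.9% and 18.2% in mesoderm (median 0.01). These counts are thus no result about the list. CHAF1B, a subunit of the chromatin assembly factor, was lower in all 3 layers. CHD3, a remodeler of the NuRD complex, was higher in endoderm (log2 2.37, adjusted p = 0.00067), with 75.1 and 86.9 CPM against 20.0 and 10.5 CPM in hPSC. HOX genes, the textbook targets of Polycomb, had hardly any reads: of 39 listed 1 was tested. That gene, HOXB2, had 52.6 and 55.1 CPM in mesoderm and 0 in both hPSC libraries, and was called higher there.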

How the data were processed

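The data were 8 long-read RNA libraries of H1 cells in 4 groups of 2, taken from the sample titles. The authors deposited whole raw read counts per assembled transcript, with no normalization. For both deposited columns of endoderm the unit was entered under expected counts, although they are whole raw counts too, so nothing was rounded. StringTie, minimap2 and the build GRCh38 (hg38) are named in the submitters' processing notes. Software versions, the annotation release, the counting of reads shared by similar copies and the use of strand are not given in the sources used here. The authors' CPM tables and the other assemblies were not used for the main values.

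A gene's count is the sum of its transcripts as named in the combined assembly. The test was that of edgeR 4.0.16 under R 4.3.3 (TMM factors, filterByExpr at a minimum count of 10, 1 quasi-likelihood fit of all 8 libraries, two-sided, Benjamini-Hochberg threshold 0.05). The SE is the log2 fold change divided by the root of F. The common biological coefficient of variation was 0.212, with 4 residual degrees of freedom. Transcripts were tested alike, and transcript choice with diffSpliceDGE in genes with at least 2 tested transcripts. For shares, F was permuted exactly over all partitions of the 8 libraries into 4 pairs. Wilson intervals at 95% and the floor of 3 counts cover counting error only. The gene, transcript and choice tests were tested on simulated data. False gene calls exceeded the nominal threshold in each layer, most in ectoderm and least in endoderm. So did false transcript calls in ectoderm and mesoderm, and false calls of transcript choice, which was simulated for ectoderm only. Part of the changed genes and many changed transcripts were missed. Intervals of a log2 change use the t quantile at the total degrees of freedom of the fit. Codon numbers are from GENCODE 29 and promoters from RefSeq, matched by symbol for all 10 genes.

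The members and gene lists were chosen with earlier results of these data known. All members were named. From each other list the rule took, per layer, the highest and the lowest changed gene whose higher group had 10 CPM or more in each library. Not all of these are described above. Left out were CXXC1 (lower in ectoderm), ASH2L (higher in endoderm), PAXIP1 (lower in endoderm), NCOA6 (higher in mesoderm) and WDR5 (lower in mesoderm). So were CHD4 (higher in ectoderm), MTA3 (lower in endoderm and mesoderm), BUB1B (lower in endoderm) and several marker genes. AEBP2, EPOP, EZHIP, LCOR, KDM6A, CBX2, ASXL1 and SUZ12P1 were named outside it, after their values were seen. The 5 genes closest to EZH1 and to EZH2 were taken by Pearson's r. Member transcripts were named by a share of at least 10% of a gene's reads in both libraries of a group, and others were chosen after their values were seen. Alternatives were DESeq2 1.42.0, RLE factors, a minimum count of 3, no filter, a replicate block, other sums of transcripts, a length trend, the assembly of each group and each library left out. Library totals with no factors were added after the data were seen.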

Additional observations from a re-analysis of the deposited data

Results flagged for a closer look

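The change of MTF2 from hPSC differed between ectoderm and endoderm. It was higher in ectoderm (log2 2.07) and lower in endoderm (log2 -1.76), and the test of the difference itself gave a log2 of 3.83 (SE 0.45, adjusted p = 5.01e-06, edgeR's quasi-likelihood test over all 10843 genes). The endoderm libraries held 3 and 4 MTF2 reads.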

How the results depend on the processing

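The gene-level counts of members called kept within 1.5 times in all alternatives but these. DESeq2 called 1 member in endoderm (main count 2). Sums of reference-matching transcripts only, or of every listed row, called 2 in mesoderm (main count 1), SUZ12 being the added gene. Library totals with no factors called 6 for endoderm against mesoderm (main count 3). Over all genes, DESeq2 called 3354 in ectoderm (main count 5280), 1831 in endoderm (2952), 2315 in mesoderm (3805) and 2010 for ectoderm against mesoderm (3848). Library totals also moved the share of higher genes among all calls, from 49.0% to 66.5% in ectoderm, 49.3% to 31.7% in endoderm and 48.04% to 59.1% in mesoderm against hPSC. Between layers it moved from 52.5% to 71.7% (ectoderm against endoderm), 51.1% to 62.3% (ectoderm against mesoderm) and 49.3% to 28.1% (endoderm against mesoderm). With 1 library left out the counts ran from 4 to 5 in ectoderm, 0 to 2 in endoderm and 1 to 2 in mesoderm, and from 4 to 6, 1 to 6 and 2 to 6 between layers. Endoderm fell to 0 without either endoderm repeat and to 1 without hPSC replicate 2, and mesoderm rose to 2 without either hPSC repeat. Ectoderm against mesoderm gave 6 without hPSC replicate 1, 5 without hPSC replicate 2 and 1 without either mesoderm repeat, and endoderm against mesoderm 6 without either hPSC repeat. In ectoderm against mesoderm and endoderm against mesoderm the share of all genes called moved the same way where these counts changed. Where an arm is left with 1 library, it is assumed to vary like the other groups. Of all transcripts DESeq2 called 2899, 1606 and 2133 against hPSC (main counts 5711, 3331 and 4080), and Simes' method called 72, 56 and 77 genes for transcript choice (main counts 152, 132 and 185). Member transcripts called were 3, 0 and 1 with DESeq2 and 13, 2 and 7 at a minimum count of 3 in ectoderm, endoderm and mesoderm (main counts 7, 1 and 2), and 2 to 8, 0 to 4 and 1 to 7 with a library left out. Members called for transcript choice were 0 in ectoderm and 0 to 1 in endoderm and mesoderm. The spread of group means of the PHF1 share was 36.9 points with reference-matching transcripts only (exact permutation p = 0.0286), that of the PHF19 share 2.89 as log2 odds (exact permutation p = 0.0381) and that of the JARID2 share 27.2 with the assembly of each group (exact permutation p = 0.0571). With a library left out these spreads ran from 21.3 to 41.1 for PHF1, 19.1 to 34.2 for PHF19, 24.4 to 32.7 for JARID2, 55.5 to 60.2 for MTF2, 17.4 to 24.2 for EZH1, 11.5 to 16.1 for RBBP7 and 3.18 to 9.87 for reads that match no reference. The cause of these moves was not tested.

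The changes that turned sign were all uncalled ones. EED in ectoderm became 0.037 at a minimum count of 3, 0.0382 with every listed row, 0.14 with no filter, 0.10 with reference-matching transcripts, 0.35 with no factors, 0.75 with the length trend removed, and -0.2761 to 0.2939 with single libraries left out. RBBP4 in ectoderm became 0.0868 with no filter, 0.31 with no factors and -0.3794 to 0.1882 with single libraries left out. With no factors EZH1 in endoderm was -0.11, PHF19 in endoderm -0.0613, RBBP4 in endoderm -0.078 and RBBP7 in ectoderm 0.12, and the last was 0.36 with the length trend removed. PHF1 in ectoderm was -0.0938 with reference-matching transcripts. With single libraries left out, EZH1 in endoderm ran from -0.57 (without hPSC replicate 1) to 1.6172 (without hPSC replicate 2), EZH2 in endoderm from -0.6702 to 0.0146, PHF19 in endoderm from -0.23 to 0.9043 and PHF19 in mesoderm from -0.7856 to 0.35, with 0.0042 without mesoderm replicate 2.

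Replicate numbers did not pair the libraries: the correlation of same-numbered libraries' deviations ran from -0.035 to 0.151 over pairs of groups. With the replicate block 5, 2 and 1 members were called against hPSC, and 5, 3 and 3 between layers, where RBBP7 in ectoderm against endoderm dropped out (adjusted p = 0.0526).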
